A study of Mus musculus with 24 samples.

Results

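The genes described here are 10 genes that stood far higher in Th17 cells than in the other T cells of this study and that are not part of the textbook Th17 program. They are Aqp3, Olfm2, Crispld2, Tmem176a, Tmem176b, Cpd, Igfbp4, Fbxo2, Lmna and Aplp2. They were chosen by hand, by their symbols, from their expression in the 6 Th17 libraries against the other 18, so their rise in Th17 cells is a description here and is not tested. Each of the 10 symbols matched 1 of 56748 rows of the count table, and all 10 were among the 15885 genes with enough reads to be tested. No numeric threshold was part of the choice.

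Messenger RNA was sequenced from mouse T cells of wild-type genotype polarised in culture to Th1, Th17 or regulatory (Treg) cells, or activated as CD8 T cells, with 6 libraries per cell type. Within each cell type 1 library came from cells given the vehicle DMSO and 5 from cells given a kappa opioid receptor (KOR) agonist of the perhydroquinoxaline type at 0.1 µM, for up to 5 days. The agonists are named here WMS-83, WMS-76, WMS-75, WMS-64 and WMS-200, since the last number of some compound codes differs between the labels of different cell types. Each combination of cell type and treatment had 1 library, so the spread within a cell type holds both treatment and library differences, and no label says whether libraries came from separate mice. The column names add a number after the letters WT, of unexplained meaning, called the WT number here. All Th1 libraries had number 4 and all of CD8 number 2. For Th17 the DMSO library had number 2, that with WMS-83 had number 3, and the remaining 4 had number 1. Among the Treg libraries those with WMS-200 and with DMSO had number 3, and the remaining 4 had number 2. The title of 1 library, Th1 with WMS-83, names Th17, while its source name, cell type and column name say Th1, and it was kept as Th1. It read 534 CPM of Ifng and 0.273 CPM of Il17f, against 2.23 to 7.38 CPM and 687 to 1012 CPM in the Th17 libraries, and leaving it out changed no call between Treg or CD8 and Th1 among the genes described. The sources used here do not give the strain, sex or age of the mice.

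Total counts ran from 15188284 to 21946887 per library. Lineage genes followed the labels: Il17f was at 831 ± 121 CPM (SD, n = 6) in Th17 and between 1.06 and 1.81 CPM on average elsewhere, Foxp3 averaged 282 CPM in Treg, and Ifng averaged 592 CPM in Th1 and 1369 CPM in CD8. CPM are counts per 1000000 reads, scaled between libraries by the TMM method. Of 20 genes of the known Th17 program, 17 were higher in Th17 than in the other 3 cell types on average in edgeR's quasi-likelihood test (adjusted p under 0.05), 2 were lower (Hif1a and Csf2) and Il23r was not called. Over all genes tested, 31.6% were called higher and 25.7% lower in that comparison. Among the 17, Irf4 (1171 against 1027 CPM) and Batf (92.2 against 88.3 CPM) had a higher mean in Th1 than in Th17. Il6ra (109 against 95.7 CPM) and Ccr6 (57.1 against 31.6 CPM) had a higher mean in Treg.

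Th17 cells are helper T cells that make IL-17A and IL-17F and arise under TGF-beta and IL-6. They defend barrier surfaces and take part in autoimmune inflammation. The 10 genes belong to other families: membrane channels (Aqp3, Tmem176a, Tmem176b), secreted proteins (Olfm2, Crispld2, Igfbp4), protein processing and disposal (Cpd, Fbxo2), the nuclear lamina (Lmna) and an APP-like surface protein (Aplp2).

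The upstream windows of 3 start sites are shown because AGGTCA is the core of DNA elements that many nuclear receptors bind, and because Aqp3 is the most abundant of the 10 genes per length. The windows hold the 250 bases before a RefSeq start site (GRCm38.p6), 5′ to 3′ on the gene's strand, in lower case, with AGGTCA on either strand in capitals, and none overlaps an annotated exon. They lie at chr4:41098184-41098433 (Aqp3), chr9:20728230-20728479 (Olfm2) and chr3:88493313-88493562 (Lmna), all read on the minus strand.
Aqp3: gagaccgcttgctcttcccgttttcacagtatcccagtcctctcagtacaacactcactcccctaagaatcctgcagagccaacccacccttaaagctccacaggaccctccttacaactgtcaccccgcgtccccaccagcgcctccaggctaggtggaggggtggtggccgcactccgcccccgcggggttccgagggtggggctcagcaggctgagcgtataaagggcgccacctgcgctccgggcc
Olfm2: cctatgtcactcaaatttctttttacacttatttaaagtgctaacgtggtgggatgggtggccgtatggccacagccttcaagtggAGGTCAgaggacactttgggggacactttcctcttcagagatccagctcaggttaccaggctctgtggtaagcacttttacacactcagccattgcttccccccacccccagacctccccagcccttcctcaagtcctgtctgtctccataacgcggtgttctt
Lmna: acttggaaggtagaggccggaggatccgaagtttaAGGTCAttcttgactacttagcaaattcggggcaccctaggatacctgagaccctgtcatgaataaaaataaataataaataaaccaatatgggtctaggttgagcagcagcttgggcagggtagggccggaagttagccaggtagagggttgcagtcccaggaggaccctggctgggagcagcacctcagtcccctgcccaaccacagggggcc
All 10 genes matched the RefSeq promoter table, with 16 start sites in all. AGGTCA was found before 2 of the 10 genes, Olfm2 and Lmna, each at 1 of its start sites, and in 14.0% of 32817 promoter windows of the same length. The core GCGTG of sites bound by the aryl hydrocarbon receptor was found before 3 of the 10 genes (Crispld2, Cpd and Aplp2) and in 28.1% of all windows. The STAT motif TTCNNNGAA and the AP-1 motif TGANTCA were found before 0 of the 10, against 7.01% and 6.75% of all windows. The percents count windows and not genes. Counted by window, AGGTCA was in 2 and GCGTG in 3 of the 16 windows of the 10 genes. Both strands were searched and overlapping matches of different motifs were counted for each. These counts describe letters in short windows and say nothing of binding.

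Aqp3, an aquaglyceroporin that passes water and glycerol, lies at chr4:41092722-41098183 on the minus strand in the coordinates of the count table, for which the sources used here name no genome build. Its 6 Th17 libraries lay between 592 and 739 CPM with a median of 653 CPM. In Treg it lay between 11.2 and 27.0 CPM, with a median of 21.1 CPM. It averaged 2.42 ± 0.277 CPM in Th1 and 6.03 ± 0.791 CPM in CD8 (SD, n = 6 each). The lowest Th17 library was thus 21.9 times the highest of the other 18, the Treg library with WMS-83, and no library of another cell type came near the Th17 range.

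**Figure D1:**
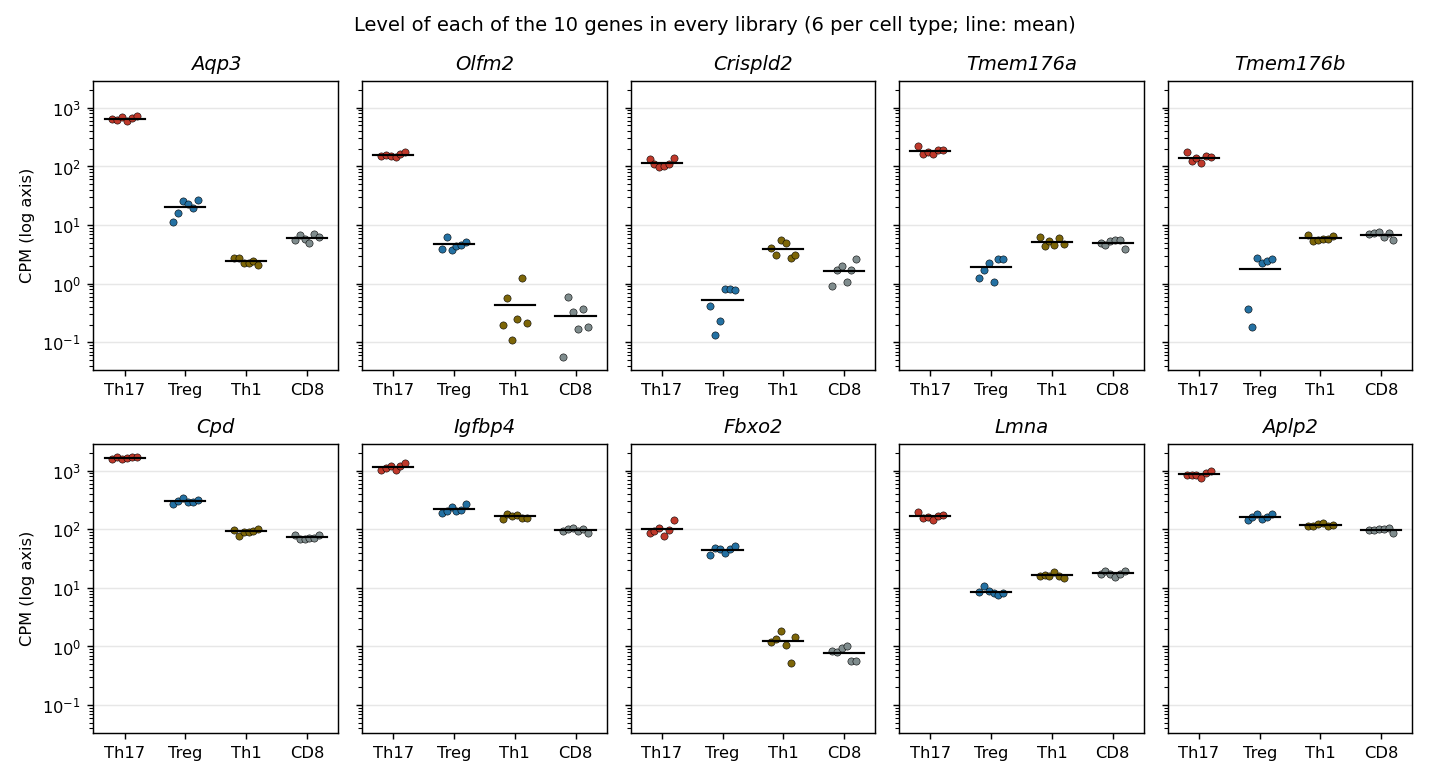
Level of each gene in each library, in CPM on a log axis, by cell type; each point is 1 library and each line the mean of 6. In every panel the 6 Th17 points lie above the other 18, with the smallest gap for Fbxo2, and the order of Treg, Th1 and CD8 differs from gene to gene.

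Tmem176a and Tmem176b, 4-pass membrane proteins related to the MS4A family, are neighbours on opposite strands, at chr6:48817853-48824005 (plus) and chr6:48810752-48818430 (minus). The 2 gene models overlap by 578 bases, and the sources used here do not say if reads were counted by strand, so reads in the shared stretch cannot be assigned with certainty. Tmem176a lay between 162 and 220 CPM in Th17, with a median of 185 CPM, and Tmem176b between 113 and 173 CPM, with a median of 143 CPM. Outside Th17 their highest libraries reached 6.24 and 7.57 CPM. Treg had the lowest levels of both, 1.93 ± 0.682 CPM for Tmem176a and 1.77 ± 1.17 CPM for Tmem176b (SD, n = 6).

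Olfm2, a secreted olfactomedin-domain protein, lies at chr9:20578986-20657645 on the minus strand. It held between 148 and 176 CPM in Th17, with a median of 154 CPM, and had the smallest spread of the secreted members (coefficient of variation 6.83%). It was near the limit of detection in Th1, with 2 to 24 counts per library, and in CD8, with 1 to 12 counts. Treg sat apart from these, with 74 to 136 counts and 4.69 ± 0.885 CPM (SD, n = 6).

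Crispld2, a secreted protein with CAP and LCCL domains, lies at chr8:120719177-120779532 on the plus strand and overlaps a lncRNA on the other strand, Gm15684, which had 50 counts in all 24 libraries together. In Th17 it lay between 97.2 and 142 CPM, with a median of 109 CPM. The highest Th17 libraries were those with WMS-83 and with DMSO. Its residual level was lowest in Treg, at 0.533 ± 0.311 CPM, and highest in Th1, at 3.89 ± 1.13 CPM (SD, n = 6 each).

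Igfbp4, a secreted protein that binds insulin-like growth factors, lies at chr11:98932070-98945218 on the plus strand. It ran from 1002 to 1369 CPM in Th17, with a median of 1151 CPM. Unlike the genes above it was well expressed everywhere, at 165 ± 13.2 CPM in Th1, 219 ± 28.5 CPM in Treg and 96.2 ± 6.06 CPM in CD8 (SD, n = 6 each). Its mean in Th17 was 5.27 times that in Treg.

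Cpd, a membrane carboxypeptidase of the trans-Golgi that trims basic residues from proteins, lies at chr11:76669250-76737844 on the minus strand. With 1543 to 1708 CPM in Th17 and a median of 1675 CPM it had the most reads of the 10 genes and the smallest spread in Th17 (coefficient of variation 3.88%). Treg held 301 ± 24.9 CPM, Th1 91.3 ± 8.40 CPM and CD8 72.8 ± 5.60 CPM (SD, n = 6 each).

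Fbxo2, an F-box protein that recognises high-mannose glycoproteins for ubiquitin-dependent disposal and is best known from neurons, lies at chr4:148245078-148250881 on the plus strand. It lay between 78.0 and 143 CPM in Th17, with a median of 95.6 CPM, and varied most among the Th17 libraries (coefficient of variation 23.0%). In Treg it lay between 36.0 and 51.7 CPM, with a median of 45.6 CPM. The lowest Th17 library was 1.51 times the highest Treg library, the narrowest separation among the 10 genes. In Th1 and CD8 it was at 1.25 ± 0.442 and 0.785 ± 0.184 CPM (SD, n = 6 each), so Fbxo2 was expressed in Treg as well as in Th17 which goes against calling it Th17-restricted.

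Lmna, which encodes the nuclear lamins A and C, lies at chr3:88387454-88417263 on the minus strand. It ran from 143 to 199.98 CPM in Th17, with a median of 165 CPM, and the DMSO library was the highest. Treg was lowest, at 8.65 ± 1.16 CPM, with Th1 at 16.3 ± 1.31 CPM and CD8 at 17.7 ± 1.71 CPM (SD, n = 6 each).

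Aplp2, the ubiquitous relative of the amyloid precursor protein, lies at chr9:31060853-31123111 on the minus strand. It ran from 747 to 984 CPM in Th17, with a median of 847 CPM. Its levels were 163 ± 15.1 CPM in Treg, 118 ± 6.66 CPM in Th1 and 97.5 ± 5.46 CPM in CD8 (SD, n = 6 each). Th1 and CD8 held 13.7% and 11.3% of its Th17 mean, and the CD8 share was the highest among the 10 genes.

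Per kilobase of gene length, the order of the levels in Th17 was Aqp3 (359 ± 28.9 CPM per kb), Igfbp4 (261 ± 29.8), Cpd (198 ± 7.67), Aplp2 (147 ± 13.2), Fbxo2 (78.1 ± 17.9), Tmem176b (59.4 ± 9.01), Olfm2 (59.0 ± 4.03), Tmem176a (48.4 ± 5.56), Lmna (28.6 ± 3.34) and Crispld2 (24.2 ± 3.75; SD, n = 6 each). From Fbxo2 to Olfm2, and for Lmna and Crispld2, neighbours in this order overlapped at 1 SD on each side, and the other neighbours did not. Together the 10 genes took 0.518% of normalised reads in Th17 (5183 ± 337 CPM), against 765 ± 77.4 CPM in Treg, 409 ± 13.5 CPM in Th1 and 305 ± 7.54 CPM in CD8 (SD, n = 6 each).

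For comparison, 828 of the 15885 genes (5.21%) had all 6 Th17 libraries above the other 18. Ordered by their log2 difference between Th17 and the mean of the other cell types, the 10 genes ranked between 6 (Olfm2, 7.54) and 127 (Aplp2, 2.81) of these 828. The measure is the one that chose them. The list was headed by Il9 and Il17f, and ranks 11 and 13 were Aqp3 and Crispld2.

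**Figure D2:**
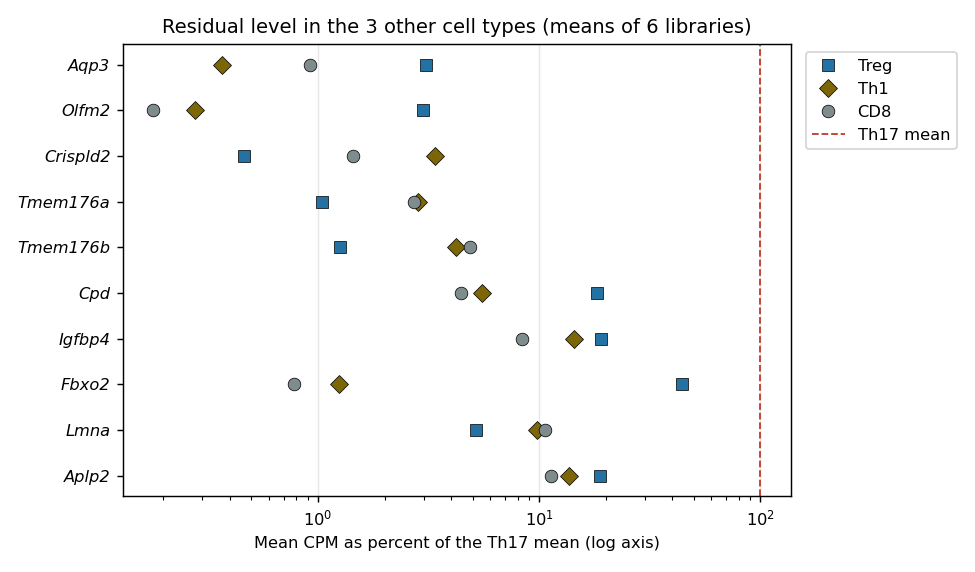
Mean CPM in Treg, Th1 and CD8 as a percent of the Th17 mean of the same gene, on a log axis; each symbol is the mean of 6 libraries. Treg is the rightmost symbol for 6 genes, up to 44.2% for Fbxo2, and the leftmost for Crispld2, Tmem176a, Tmem176b and Lmna.

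Among the 3 cell types that were not Th17, the 10 genes split into 6 that were highest in Treg and 4 that were lowest there. In edgeR's test of Treg against Th1, adjusted over all genes, 6 were higher in Treg: Fbxo2 (log2 difference 5.16 ± 0.14 SE, adjusted p = 1.63e-20), Olfm2 (3.40 ± 0.27), Aqp3 (3.04 ± 0.16), Cpd (1.73 ± 0.07), Aplp2 (0.46 ± 0.07) and Igfbp4 (0.40 ± 0.07). The other 4 were lower in Treg: Crispld2 (-2.87 ± 0.31), Tmem176b (-1.75 ± 0.32), Tmem176a (-1.42 ± 0.15) and Lmna (-0.92 ± 0.09). All 10 adjusted p-values from edgeR were 6.40e-05 or less. Treg and Th1 differed in most genes, with 40.1% of all genes called higher and 37.3% lower, so a call by itself was common in this comparison.

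The same 6 genes were higher and the same 4 lower in Treg than in CD8. The largest differences were again those of Fbxo2 (5.80 ± 0.15, edgeR adjusted p = 6.48e-21) and Olfm2 (3.98 ± 0.29), and on the lower side those of Tmem176b (-1.97 ± 0.31) and Crispld2 (-1.65 ± 0.35). Over all genes 40.2% were called higher and 37.8% lower. Both comparisons share the Treg libraries.

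CD8 and Th1 cells were much closer to each other. All Th1 libraries had WT number 4 and all CD8 libraries number 2, so number and cell type cannot be told apart here either. Only Aqp3 was higher in CD8 (1.31 ± 0.18, edgeR adjusted p = 1.03e-05), where 8.69% of all genes were called higher. Crispld2 (-1.22 ± 0.26), Igfbp4 (-0.78 ± 0.08), Cpd (-0.33 ± 0.07) and Aplp2 (-0.27 ± 0.07) were lower, where 7.26% of all genes were. The other 5 were not called, and the interval of their differences reached from -1.56 to 0.39 for Olfm2, the widest, and from -0.07 to 0.30 for Lmna. For Fbxo2 the difference of -0.64 ± 0.23 had an adjusted p of 0.0558 in edgeR, and DESeq2 called it (adjusted p = 0.044).

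**Figure D3:**
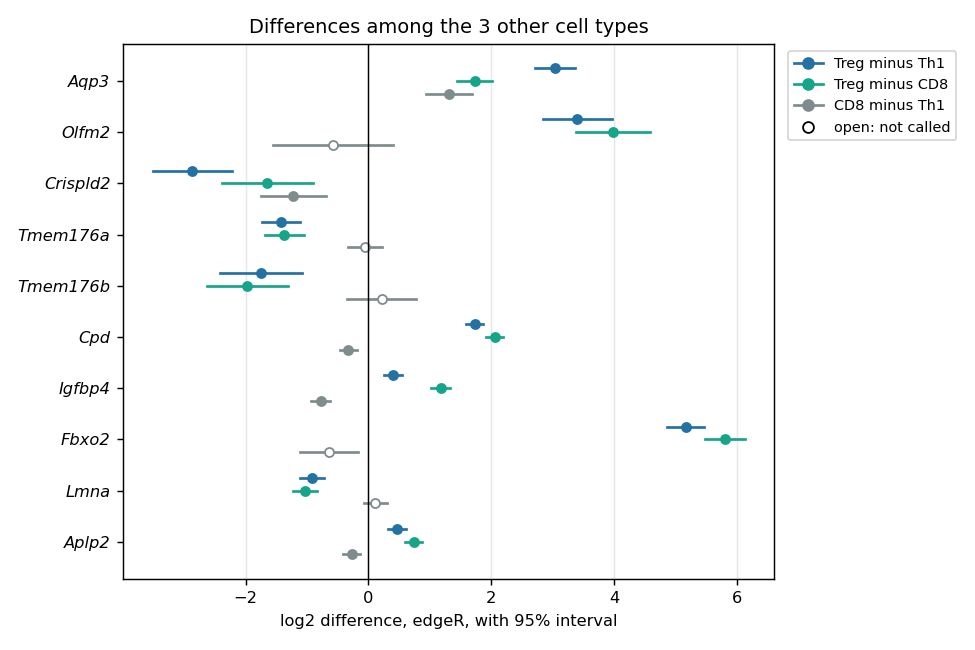
log2 differences of the 10 genes among Treg, Th1 and CD8 from edgeR, with 95% intervals; filled points passed an adjusted p of 0.05 and open points did not. Fbxo2 and Olfm2 lie farthest to the right for Treg, Crispld2 farthest to the left against Th1 and Tmem176b against CD8, while the CD8 against Th1 points stay within 1.31 of 0.

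Genes of the known Th17 program also divided in Treg. Rora averaged 267 CPM in Th17 and 174 CPM in Treg, against 16.1 and 26.4 CPM in Th1 and CD8. Ccr6, a chemokine receptor of Th17 cells, averaged 31.6 CPM in Th17 and 57.1 CPM in Treg. Maf, with 425 CPM in Th17 and 84.8 CPM in Treg, and Gpr15, with 67.3 and 7.30 CPM, were like Rora lower in Treg than in Th17. Both were lower still in Th1 and CD8, at 6.52 and 5.74 CPM for Maf and 0.396 and 0.718 CPM for Gpr15. The cytokine genes Il17a (144 and 0.438 CPM), Il17f (831 and 1.81 CPM) and Il21 (197 and 0.142 CPM) were near 0 in Treg. Of the genes described here, Tmem176a and Tmem176b, of whose Th17 means Treg held 1.05% and 1.26%, and Crispld2, with 0.461%, were also near 0 in Treg.

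Within Th17 cells the agonists left the 10 genes without a called difference. The DMSO library and the 5 agonist libraries of Aqp3 read 634 CPM against 739, 672, 592, 684 and 617 CPM for WMS-83, WMS-76, WMS-75, WMS-64 and WMS-200. Those of Tmem176b read 173 CPM against 146, 150, 113, 139 and 123 CPM in the same order, and those of Lmna 199.98 CPM against 174, 166, 143, 163 and 154 CPM. DMSO was thus above all 5 agonist libraries for Tmem176b and Lmna, and also for Tmem176a, where it read 220 CPM. It was the highest Th17 library for these 3 of the 10 genes and for 15% of all genes tested.

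In edgeR's test of the 5 agonist libraries against DMSO in Th17, 0 of the 10 genes and 0.0378% of all genes were called (6 genes). The log2 differences ran from -0.37 for Tmem176b to 0.29 for Fbxo2, and all 10 adjusted p-values were 1. At an unadjusted p under 0.05, 531 of 15885 genes passed and 1 of the 10, Lmna (-0.32 ± 0.14, unadjusted p = 0.0251 in edgeR, 95% interval -0.60 to -0.04). DESeq2 and limma-voom also called 0 of the 10. The intervals are wide because DMSO is 1 library: that of Tmem176b reached from -1.005 to 0.27 and that of Cpd, the narrowest, from -0.19 to 0.29. In Th17 the WT number of the DMSO library was shared with no agonist library, so number and treatment cannot be told apart.

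WMS-83 was the highest Th17 library for 6 of the 10 genes, and for 16.8% of all genes tested. WMS-75 was the lowest for 7 of the 10, and for 24.6% of all genes. Fbxo2 read 143 CPM for WMS-83, 78.0 CPM for WMS-75 and 84.6 CPM for DMSO. The WMS-83 and WMS-75 libraries had the lowest and the highest TMM factor of the Th17 libraries, 0.907 and 0.996, and the WMS-83 library alone carried the WT number 3. The part of either in the order was not tested.

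The agonist difference in Th17 was set against that in the other cell types in edgeR's interaction test, which called 0 of the 10 genes and 0.0252% of all genes. At an unadjusted p under 0.05 there were 2 of the 10 (Tmem176b and Lmna) and 906 of all genes. DESeq2 and limma-voom called 0 of the 10. Over the 4 cell types together, 0 of the 10 genes and 0% of all genes were called for the 5 agonists against DMSO, with differences between -0.14 (Tmem176a) and 0.28 (Aqp3) and 1 gene, Igfbp4, at an unadjusted p under 0.05. Of all genes 504 had an unadjusted p under 0.05 in that test. For each compound by itself edgeR called 0 of the 10 genes and 0% of all genes, with 0 to 3 of the 10 and 246 to 1021 of all genes at an unadjusted p under 0.05. The largest single value was that of Fbxo2 with WMS-83 (0.54 ± 0.16, edgeR adjusted p = 0.915, 95% interval 0.22 to 0.87). DESeq2 and limma-voom called 0 of the 10 in these tests as well. In Th1 and CD8 the agonist test of edgeR called 0 of the 10 genes, against 0% and 0.0063% of all genes. At an unadjusted p under 0.05 it was again 0 of the 10, against 517 genes in Th1 and 320 in CD8.

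Treg cells, examined in this way after their values had been seen, gave 1 called gene. Aqp3 read 11.2 CPM with DMSO and 27.0, 19.5, 22.7, 25.3 and 16.2 CPM with WMS-83, WMS-76, WMS-75, WMS-64 and WMS-200. All 5 agonist libraries lay above DMSO, with a log2 difference of 0.99 ± 0.20 (edgeR adjusted p = 0.00446), where 8.82% of all genes were called. The difference was larger than the mean agonist difference in the other cell types by 0.99 (edgeR adjusted p = 0.0182), where 5.55% of all genes were called. The WT number moved with it: the DMSO and WMS-200 libraries, which carry the number 3, were the 2 lowest, and with a term for that number the difference was 0.53 ± 0.20 (edgeR adjusted p = 0.310). In Treg the DMSO library has 1 agonist library of its own number, so the 2 can be told apart only through WMS-200.

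In Treg Tmem176b was low in both libraries with WT number 3. These 2 libraries had 7 counts (DMSO) and 4 counts (WMS-200), and the 4 with number 2 had between 43 and 59 counts. Its agonist difference of 2.44 ± 0.87 was not called by edgeR (adjusted p = 0.0900), was called by DESeq2 (2.41 ± 0.76, adjusted p = 0.0173), and was -1.005 ± 0.78 with a term for the number (edgeR adjusted p = 0.757). Igfbp4 also had both libraries with number 3 below all 4 with number 2. Of all genes tested 21.3% were below in this way and 15.9% above.

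**Figure D4:**
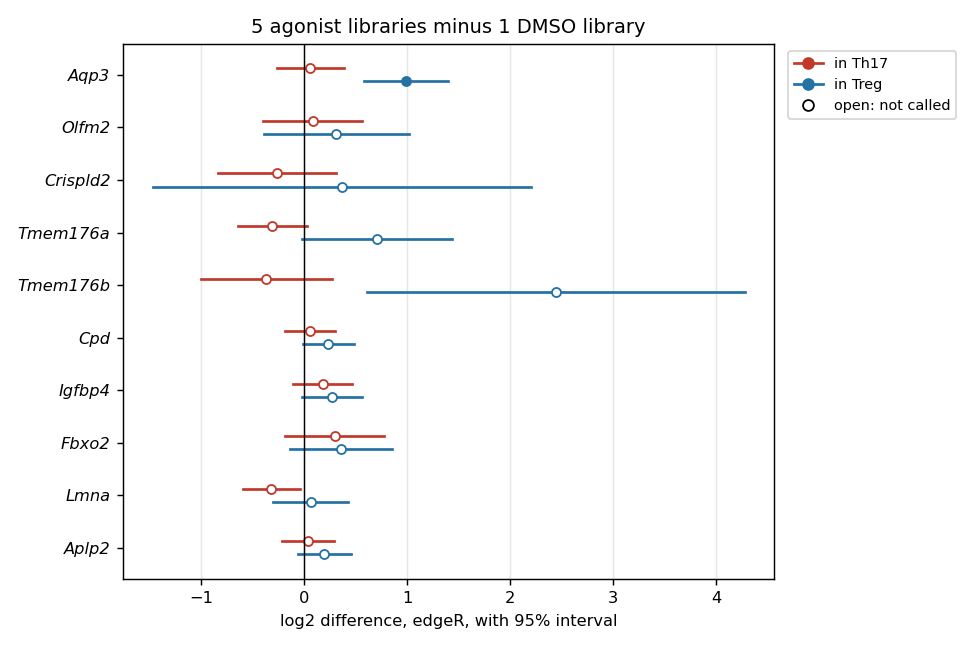
log2 differences between the 5 agonist libraries and the DMSO library for the 10 genes, in Th17 and in Treg, from edgeR with 95% intervals; the filled point passed an adjusted p of 0.05. In Th17 all 10 points lie between -0.37 and 0.29, and Aqp3 in Treg, at 0.99, is the filled point.

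Across all 24 libraries the gene profiles were alike because of the step between Th17 and the rest. Against the mean scaled profile of the 10, Pearson's r ran from 0.77 for Fbxo2 to 0.995 for Aplp2, as a description of libraries that share a cell type. Outside the 10, the genes most like this profile over 24 libraries were Cldnd1 (r = 0.992), Sbk1 (0.992), Pdpn (0.991), Ninj1 (0.990), Usp22 (0.989), Septin6 (0.988), Cpox (0.988) and Malt1 (0.987). Pdpn, which encodes podoplanin, a surface glycoprotein known on Th17 cells, averaged 52.6 CPM in Th17 and between 2.57 and 3.57 CPM elsewhere. Malt1, a protease of antigen receptor signalling, averaged 967 CPM in Th17 and between 213 and 285 CPM elsewhere.

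Once each cell type's mean was removed, the 45 pairs among the 10 genes had a median r of 0.14 over the 24 libraries, and 31 pairs were positive. The highest was that of Igfbp4 and Aplp2 (0.86) and the lowest that of Olfm2 and Fbxo2 (-0.47). All pairs share libraries and scaling factors.

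The families and partners of the 10 genes went in both directions. Of 136 such genes listed by known function 95 had enough reads to be tested, and in edgeR's test of Th17 against the mean of the other cell types 33 were higher, 33 lower and 29 not called. Over all genes 31.6% were called higher and 25.7% lower in this test, and the counts by list below are to be read beside these shares. The 95 tested genes had a median log2 difference of -0.03, beside 0.02 over all genes. A log2 difference over 1 was called for 6 of them, and for 5.46% of all genes.

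Among the other aquaporins, Aqp9, also an aquaglyceroporin, was higher in Th17 (12.5 CPM, against 0.766 in Th1, 1.40 in Treg and 1.98 in CD8, log2 difference 3.35 ± 0.23), Aqp4 was lower and Aqp7 and Aqp11 were not called. Of 12 genes that handle glycerol and its lipids, 3 were higher and 6 lower. The hormone-sensitive lipase gene Lipe was higher (1.12 ± 0.06), while the triglyceride synthesis gene Dgat1 (-1.40 ± 0.10) and the monoglyceride lipase gene Mgll (-1.26 ± 0.16) were lower. Dgat2 was lower too (-1.91 ± 0.18), but without the Treg libraries, which averaged 30.7 CPM, it was not called (-0.50 ± 0.25, edgeR adjusted p = 0.0865). Mgll was lowest in Treg, at 1.22 CPM against 2.34 CPM in Th17.

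The MS4A family, to which the Tmem176 pair is related, went the other way. All 9 of its 14 listed genes that were tested were lower in Th17, with a median log2 difference of -1.99. Ms4a4b, the most abundant, averaged 163 CPM in Th17 and 242, 242 and 421 CPM in Th1, Treg and CD8. Ms4a4c averaged 3.28 CPM in Th17 and between 20.5 and 53.6 CPM elsewhere (-3.24 ± 0.17), Ms4a4a was lower by as much (-3.24 ± 0.36), and Ms4a8a had no count in Th17 and Ms4a1, a B cell marker, 0.0425 CPM.

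Relatives of the secreted members were sparse. Olfm1 was not called, at 0.341 CPM in Th17, and Olfml2a was lower (-3.66 ± 0.47), at 0.153 CPM in Th17 and 7.84 CPM in Th1. Crispld1, the closest relative of Crispld2, had 1 count in all and was not tested. Glipr1 was lower (-1.14 ± 0.07) and Pi16 was lower (-1.80 ± 0.61), both CAP-domain genes. Glipr2 was higher (0.28 ± 0.05), which did not hold without the Treg libraries (0.05 ± 0.05, edgeR adjusted p = 0.321).

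In the IGF axis 2 of 7 tested genes were higher, the receptor gene Igf1r (0.71 ± 0.05) and Igfbp7 (0.86 ± 0.32, edgeR adjusted p = 0.0262). Igf1r averaged 107 CPM in Th17 and as much in Treg (109.6 CPM). Igfbp7 was higher in Treg (18.4 CPM) than in Th17 (8.31 CPM), and its call was lost without any 1 of 4 Th17 libraries (DMSO, WMS-200, WMS-64 or WMS-76). Lower were Stc2 (-2.09 ± 0.29), an inhibitor of IGFBP-cleaving proteases, and Igf2r (-0.51 ± 0.05). Pappa2, one of those proteases, averaged 0.0255 CPM in Th17 and 5.55 CPM in Th1. Igf1 and Igf2 had 97 and 3 counts in all and were not tested, so the ligands of Igfbp4 were barely present in these libraries.

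Among carboxypeptidases related to Cpd, Cpe was higher (1.18 ± 0.28) at a level of 2.76 CPM, and Cpm was lower (-1.25 ± 0.10). Cpm was about as low in Treg (6.93 CPM) as in Th17 (7.46 CPM), against 36.0 CPM in Th1 and 22.6 CPM in CD8. The proprotein convertases act before such carboxypeptidases by cutting at basic residues. Pcsk6 was higher (4.25 ± 0.53) at 1.24 CPM and Pcsk1 lower (-2.36 ± 0.31). Pcsk1 was about as low in Treg (0.288 CPM) as in Th17 (0.365 CPM). Furin, the abundant one, averaged 1015 CPM in Th17 and was called higher (0.26 ± 0.06), but it was lower without the Treg libraries (-0.42 ± 0.05), which averaged 327 CPM.

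Among 17 tested genes of sugar-binding F-box proteins and glycoprotein disposal, 9 were higher and 2 lower. Fbxo6 (0.59 ± 0.06) and Fbxo44 (0.44 ± 0.10), the closest relatives of Fbxo2, were higher, as was Fbxo27 (1.18 ± 0.42) at 0.805 CPM, whose call was lost without the DMSO or the WMS-75 library of Th17. Fbxo17 was lower (-0.96 ± 0.18). Fbxo6 averaged 38.8 CPM in Th17, 35.0 CPM in Th1 and 31.1 CPM in CD8, with Treg lowest at 15.5 CPM. Fbxo44 was highest in Treg, at 21.1 CPM against 10.5 CPM in Th17. None of them came near the difference seen for Fbxo2 (4.82).

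The nuclear lamina and envelope genes differed little: 8 of 15 were higher and 2 lower. The B-type lamin genes Lmnb1 (0.57 ± 0.07) and Lmnb2 (0.48 ± 0.08), the LINC complex genes Sun2 (0.78 ± 0.04) and Syne1 (0.73 ± 0.11), and Zmpste24, which processes prelamin A (0.63 ± 0.06), were higher. In Treg, where Lmna was at its lowest, Sun2 and Syne1 were also high, at 300 and 115 CPM against 341 and 94.6 CPM in Th17. Zmpste24 averaged 117 CPM in Th17, 102 CPM in Th1, 108 CPM in CD8 and 39.7 CPM in Treg. Banf1, also called higher, averaged 148 CPM in Th17, 186 CPM in both Th1 and CD8, and 29.7 CPM in Treg. Lmnb1 and Lmnb2 were highest in Th17, at 268 and 70.6 CPM. Syne2 was lower (-0.59 ± 0.10), a call lost without the Treg libraries.

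Of 16 tested APP family and secretase genes 6 were higher and 4 lower. App itself was lower (-0.49 ± 0.08), at 11.1 CPM in Th17 and 10.9 CPM in Treg, and Aplp1 was not called (-0.02 ± 0.14). Higher were genes of the cleaving enzymes, Adam10 (0.56 ± 0.06), and the gamma-secretase genes Aph1b (1.503 ± 0.19) and Psenen (0.60 ± 0.07), the last not called without the Treg libraries (0.07 ± 0.07). Aplp2 was thus the APP family gene with most reads in these cells.

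**Figure D5:**
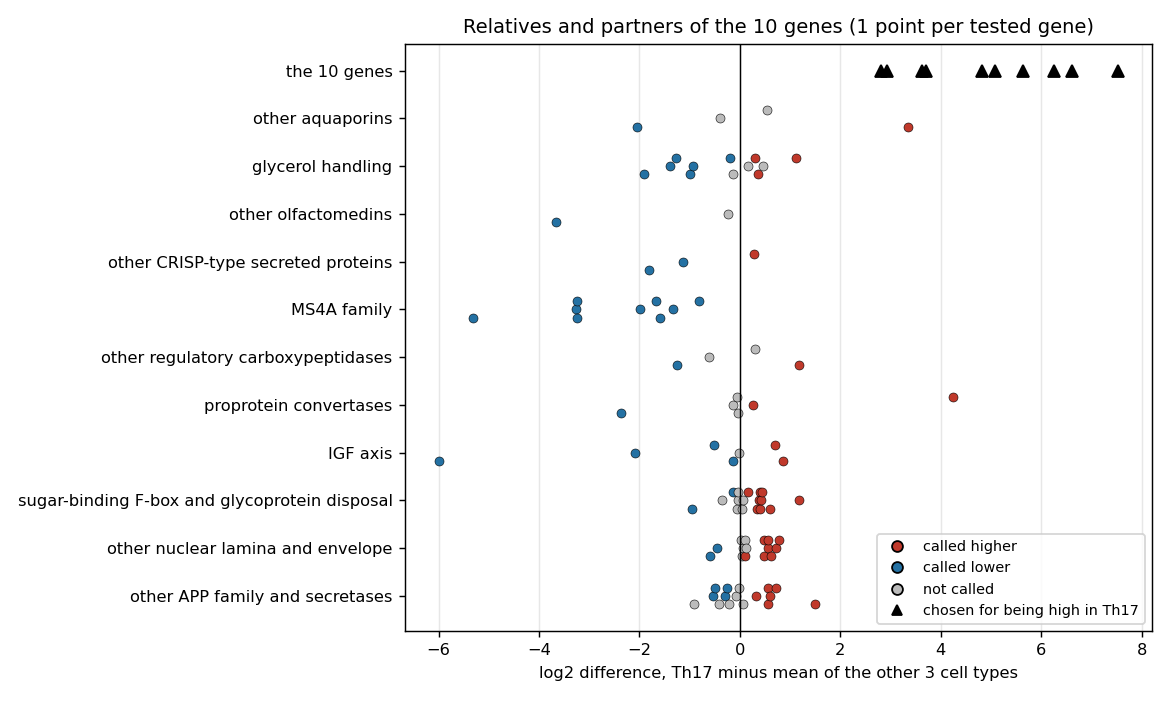
log2 differences between Th17 and the mean of the other 3 cell types for the tested relatives and partners, by list; each circle is 1 gene, coloured by its call, and the triangles are the 10 genes, which were chosen for this difference. The MS4A family lies wholly to the left of 0, and Aqp9 and Pcsk6 are the circles that reach the range of the triangles.

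Several of the 10 genes are known from epithelial or stromal cells, so markers of other cells were summed per cell type. The 8 epithelial markers summed to 13.7 ± 3.02 CPM in Th17 (range 10.4 to 17.7), 7.72 ± 2.53 in Treg, 2.03 ± 0.635 in CD8 and 1.498 ± 0.367 in Th1 (SD, n = 6 each). Epcam, Cdh1 and Cldn4, all 3 tested, were called higher in Th17. Cdh1 was still lower in Th17 (1.36 CPM) than in Treg (3.38 CPM). Epcam averaged 3.92 CPM in Th17 and 2.96 CPM in Treg, and Cldn4 8.35 and 1.09 CPM. The defining keratins were at or near 0, with 0 counts of Krt5, 2 of Krt8, 1 of Krt14, 38 of Krt18 and 12 of Krt19 over all 24 libraries. The 10 stromal markers summed to 7.58 ± 0.709 CPM in Th17, below Th1 (22.7 ± 2.08) and CD8 (24.9 ± 4.15), and the 15 myeloid markers to 2.66 ± 1.21 CPM in Th17 and between 3.21 and 3.63 CPM on average elsewhere. B cell markers summed to 53.3 ± 5.72 CPM in Th17, about as in Th1 (54.8 ± 3.32), with 80.7 ± 2.68 in CD8 and 130 ± 18.4 in Treg. Most of that sum was Ighm, at 47.9 CPM in Th17 and 49.2 CPM in Th1.

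Markers of CD8 cells summed to 299 ± 89.9 CPM in Th17 (range 177 to 440), above Th1 (197 ± 8.76) and below CD8 (2615 ± 82.4). Of 9 tested natural killer, gamma delta and innate lymphoid genes 5 were called higher in Th17, 1 lower and 3 not, where 31.6% of all genes were called higher. Trdc averaged 10.95 CPM in Th17 and between 1.66 and 7.98 CPM elsewhere, and Trgc1 3.45 CPM and between 0.535 and 1.16 CPM. Trgc4 averaged 3.71 CPM in Th17 and between 0.718 and 1.99 CPM elsewhere. Kit, also called higher, averaged 22.3 CPM in Th17 and 62.2 CPM in Treg. Sox13 (0.559 CPM in Th17 and 1.11 in CD8), Scart1 (1.99 and 5.11 CPM) and Blk were not called, and Scart2, called higher, was at 2.28 CPM in Th17 and 2.88 in Th1. The list of 11 natural killer, gamma delta and innate lymphoid genes in the table summed to 102 ± 10.9 CPM in Th17, 99.96 ± 13.3 in Th1, 191 ± 8.58 in CD8 and 283 ± 74.8 in Treg. The largest part of each sum was Il7r, the gene called lower, at 54.9, 84.9, 156 and 215 CPM in that order. The sums thus mostly follow Il7r and say little of the gamma delta genes. The part of these cells in the levels of the 10 genes was not tested, and in bulk RNA more cells with a transcript and more transcript per cell cannot be told apart.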

How the data were processed

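For the 24 poly(A)-selected libraries the submitters' processing notes name featureCounts, HISAT2 and fastp as the authors' tools, and the sources used here give no versions, genome build or strand setting. The deposited values are raw counts per gene. In R 4.3.3, genes were filtered with edgeR 4.0.16 (filterByExpr by cell type, minimum count 10) and scaled by TMM, and robust quasi-likelihood models were fitted to all libraries. One held cell type plus compound (15 residual degrees of freedom). The other held agonist or DMSO within each cell type (16). The p-values were adjusted over 15885 genes by Benjamini-Hochberg at 0.05. Depth limits genes with few counts, and the models give each difference with its SE. Where DMSO is 1 library, it is assumed to vary like the others. The p-values measure only the spread between these libraries, which may be technical.

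The members, gene lists and tests were chosen with earlier results of these data known. The named genes were all members, the closest relatives, and up to 4 called genes per list with the largest change, apart from items not reported here. The likeness rule took 8 genes with a mean log2 CPM of at least 1. The comparison of agonists with DMSO in Treg was added after its values were seen. Promoter windows were RefSeq's, and exon overlap came from GENCODE of the same assembly. Alternatives were DESeq2 1.42.0, limma-voom 3.58.1, DESeq2's size factors, no filter, length offsets, cell type alone and left-out libraries. The scripts were tested on simulated data.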

Additional observations from a re-analysis of the deposited data

Results flagged for a closer look

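Lmna in Treg had 1 library apart from the others: with WMS-200 it read 10.9 CPM, and the other 5 lay between 7.67 and 8.70 CPM. It was the 1 such library in 40 groups of a gene and a cell type, where chance flags about 1 in 20.

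The agonist difference of Aqp3 was larger in Treg than the mean of those in the other 3 cell types by 0.99 ± 0.24 on the log2 scale (edgeR interaction test, adjusted p = 0.0182, with 5.55% of all genes called). All 5 agonist libraries of Treg lay above DMSO. The WT number of the columns divides the same libraries in part, as given above.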

How the results depend on the processing

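Replicate numbers here only name libraries in accession order. Libraries match across cell types by compound, which the reported model holds as a term. With cell type alone the 3 counts of members called among Treg, Th1 and CD8 were the same (10, 5 and 10), and 67 relatives were called. All 10 genes stayed called, with their direction, in Treg against Th1 and against CD8 under every alternative run, including length offsets, cell type alone, only the 18 other libraries and each left-out library. The count of members called in CD8 against Th1 was within 1.5 times of 5 under all of them. Of genes not called there, with 1 library left out Olfm2 ran from -0.915 to 0.11, positive without WMS-76 of Th1, and Tmem176a from -0.13 to 0.025, positive without WMS-83 of CD8. Fbxo2 was called there with DESeq2, with no filter (-0.64), without the WMS-75 library of CD8 (-0.77) and without the WMS-76 library of Th1 (-0.80).

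For the agonists in Th17, 0 of the 10 genes were called under each alternative, and Aplp2 ran from -0.0106 to 0.0888 with 1 library left out, negative without WMS-83, which is also the fit with WT number 1 only. With no filter, 1 call appeared among the single compounds (Fbxo2 with WMS-83, 0.57 ± 0.14, edgeR adjusted p = 0.0497). In Treg, alternatives chosen after seeing the data gave 2 called genes with DESeq2, 1 to 2 with 1 library left out, where the WMS-200 library gave the 2, and 0 with a term for the WT number. With that term Tmem176b read -1.005 and Crispld2 -1.59, and with 1 library left out Lmna ran from -0.0415 (WMS-200) to 0.101, none of them called. Over all genes, agonists in Th17 gave 6 calls, 11 with DESeq2 and 12 with no filter. The interaction with Th17 gave 4 calls, 13 with DESeq2, 1 with limma-voom, 41 with no filter and 8 without WMS-83. Over the cell types the agonists gave 0 calls, 5 with limma-voom and 26 with no filter. Each compound gave 0, up to 5 with limma-voom and 7 to 46 with no filter. In Treg the 1401 calls became 2576 without WMS-200, 930 without WMS-83 and 21 with the WT term. The cause was not tested.

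Among relatives, Aplp1 read 0.00039 with limma-voom, -0.0879 to 0.0786 with 1 library left out (positive without WMS-83) and 0.52 without Treg, where it was called. Furin read -0.42 without Treg. Olfm1, not called, read -0.459 to 0.0585 with 1 Th17 library left out, positive without WMS-75. Counts of called relatives ran from 61 to 70 over the alternatives, with 66 reported. Filtering nothing moved the median of all genes in Th17 against the others to -0.28. Depth limits Olfm2 in Th1 and CD8, Tmem176b and Crispld2 in Treg and Fbxo2 in CD8, where some libraries had under 10 counts.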
